A study of Homo sapiens with 8 samples.

Results

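The data are the replication origins of ORC5KO cells set beside those of WT cells. Both are HCT116 p53-/- cells, an established human colorectal cancer line without the p53 checkpoint protein, grown in McCoy's 5A medium, and the lines differ by the CRISPR–Cas9 inactivation of ORC5. According to the study, its lines also had different passage histories. The knockout is 1 derived line, in which the ORC4 and ORC5 held on chromatin are strongly reduced. Origins were mapped by SNS-seq, in which the short strands of new DNA made at sites of initiation are isolated and sequenced, with 2 biological replicates per line and so 4 of the 8 samples of the study. All rows on chromosomes 1 to 22 and X of the table that counts WT and ORC5KO reads in the joined origins of the 2 lines were taken, which were 46463 of its 46722 rows (the study's 3 such tables hold 133590 rows). Each row was marked by its overlap with the list of 30195 WT peaks and the list of 41328 ORC5KO peaks on the same chromosomes. The table merges the replicates of a line, so no spread between replicates and no p-value can be given, and every interval below is an exact 95% Clopper-Pearson interval that covers counting error only.

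In human cells, the origin recognition complex (ORC) of the subunits ORC1 to ORC6 marks sites at which CDC6 and CDT1 help to load the MCM2–7 helicase in G1 phase. Loaded helicases are licensed origins, and only some of them fire in the following S phase. Human origins have no single consensus sequence. They tend to lie near gene starts, at CpG islands, and in GC-rich stretches in which one strand carries more G than C.

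Sequences are printed here for the origins at the extremes, because the highest and lowest origins differ to the eye in how unevenly G and C are split between the strands. Each is the central 150 bases of an origin of hg38 on the forward strand, and the rarer of G and C is in capitals. The first 3 are among the 4 highest origins by the log2 fold of ORC5KO over WT, the third sharing its value with one not printed. The next 2 are the lowest outside UTRs, all among origins with at least 100 reads. The last is the highest origin whose longest tandem repeat is ATCC over at least 40 bases.
chr12:132181286-132181435, near GALNT9, highest: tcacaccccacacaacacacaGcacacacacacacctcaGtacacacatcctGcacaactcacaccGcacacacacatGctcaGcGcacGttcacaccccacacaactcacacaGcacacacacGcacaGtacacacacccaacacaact
chr16:87739011-87739160, KLHDC4 intron, highest: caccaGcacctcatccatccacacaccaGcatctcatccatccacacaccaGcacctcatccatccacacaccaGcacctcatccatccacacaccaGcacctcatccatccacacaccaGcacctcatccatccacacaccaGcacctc
chr7:27368149-27368298, lncRNA gene, highest: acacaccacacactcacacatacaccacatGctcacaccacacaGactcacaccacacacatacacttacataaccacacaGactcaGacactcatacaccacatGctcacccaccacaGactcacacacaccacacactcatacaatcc
chr5:178544062-178544211, COL23A1 intron, lowest: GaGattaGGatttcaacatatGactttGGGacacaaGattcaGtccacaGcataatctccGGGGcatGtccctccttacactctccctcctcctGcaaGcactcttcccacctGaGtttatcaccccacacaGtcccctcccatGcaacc
chr5:178495500-178495649, COL23A1 intron, lowest: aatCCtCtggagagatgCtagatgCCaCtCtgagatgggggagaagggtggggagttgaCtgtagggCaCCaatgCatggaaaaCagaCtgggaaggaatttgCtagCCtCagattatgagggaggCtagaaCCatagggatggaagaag
chr1:22337042-22337191, intergenic, ATCC repeat: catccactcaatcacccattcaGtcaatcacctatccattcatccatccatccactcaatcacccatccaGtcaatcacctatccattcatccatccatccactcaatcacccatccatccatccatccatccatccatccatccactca

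In these 3 highest origins, the rarer base occurred 11, 7, and 6 times in 150 bases, against 70, 78, and 67 of the commoner one. In the 2 lowest it occurred 22 times each, against 55 and 54. The origin with the ATCC repeat had 2 G and 68 C in this window.

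Most origins had close to the same share of reads in both lines. Reads were scaled to reads per 1000000 (RPM) by all 6878409 WT or 8523971 ORC5KO reads of the table. An origin held a median of 110 WT and 137 ORC5KO reads, which are 16.0 and 16.1 RPM. The median log2 fold of ORC5KO over WT was −0.0032, and the middle 50% of origins lay between −0.14 and 0.14. At the study's threshold of 1.5-fold in RPM, 966 of the 46463 origins (2.08%) were up in ORC5KO and 316 (0.68%) were down. The interval left out 0 for 963 of the up origins and for all 316 down origins. The cut at 1.5-fold was made on the same counts, so this largely follows from it. Over all origins the interval lay above 0 for 2712 and below 0 for 2213, so most origins whose interval left out 0 changed by less than 1.5-fold. At 95%, some of these intervals would leave out 0 by counting error alone. The typical origin had an interval 0.75 log2 units wide, which narrowed to 0.33 for the 1324 origins with 1000 reads or more.

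The up and down origins differed in sequence and place. Up origins had a median GC content of 48.5%, down origins one of 50.9%, and all origins one of 52.9%. The median absolute GC skew, the difference of G and C over their sum, was 0.75 in up origins, 0.30 in down origins, and 0.34 in all. Of the up origins, 65.4% had an absolute skew of 0.6 or more, compared with 1.90% of the down origins and 5.68% of all. Up origins were 557 bp wide at the median and down origins 435 bp, beside 536 bp over all origins. At the median they rose from 10.2 RPM in WT to 17.8 RPM in ORC5KO, while the down origins fell from 12.9 to 7.98 RPM.

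The peak lists differed more than the reads did. Both lists named 24817 of the joined origins, the ORC5KO list alone 16401 (35.3%), and the WT list alone 5245 (11.3%). The origins called only in ORC5KO also held WT reads, with a median of 79 WT reads beside 107 ORC5KO reads and a median log2 fold of 0.11. Reads outside the joined origins were not counted, so the background level is not known. Of the origins called only in ORC5KO, 802 (4.89%) were up by 1.5-fold and 7 were down. Origins called only in WT held a median of 95 WT and 102 ORC5KO reads, their median log2 fold was −0.20, and 262 of them (5.00%) were down. Among the origins on both lists, with 146 and 178 reads at the median, 150 (0.604%) were up and 47 (0.189%) were down. Because the lists were called on these same reads, the direction of the folds of origins on a single list is partly built in. Origins called only in ORC5KO made up 22.4% of WT reads and 24.3% of ORC5KO reads on these chromosomes. The ORC5KO column is the deeper of the 2, and the part of depth in the longer list was not tested.

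ORC5KO peaks stood closer together and many lay far from any WT peak. Neighbouring midpoints were a median of 15.0 kb apart in the WT list and 12.6 kb in the ORC5KO list, and peak widths were alike at 525 and 524 bp. An origin called only in ORC5KO lay a median of 36.4 kb from the nearest WT peak. For 4736 of them (28.9%) this distance was 100 kb or more, and for 14.8% it was under 5 kb. Origins called only in WT lay a median of 26.0 kb from the nearest ORC5KO peak, with 19.9% at 100 kb or more. Of 2921 windows of 1 Mb, 1970 held more ORC5KO than WT peaks, 260 held fewer, and 691 held the same number, of which 428 held none of either line. Peaks of ORC5KO without any of WT were found in 279 windows, and the reverse in 54.

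By mean RPM, the weakest class had the highest shares both up and down, but this turned with the line that set the classes. The origins were put in 10 classes of equal size by the mean RPM of both lines. In the weakest class, 5.20 to 9.81 RPM, the median log2 fold was 0.10, 249 of 4647 origins (5.36%) were up, and 127 (2.73%) were down. In the strongest class, 38.4 to 566 RPM, the median was −0.03, 45 origins (0.968%) were up, and 6 (0.129%) were down. The share down fell from 1.31% in the second class to 0.172% in the eighth, whereas the share up stayed between 1.42% and 2.28% from the second class to the ninth. By WT RPM the median of the weakest class was 0.23, with 9.45% up and 0.409% down, below the 0.68% of all origins. By ORC5KO RPM it was −0.087, with 1.92% up and 4.97% down. The strongest class held 28.5% of WT reads and 28.2% of ORC5KO reads on these chromosomes.

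**Figure D1:**
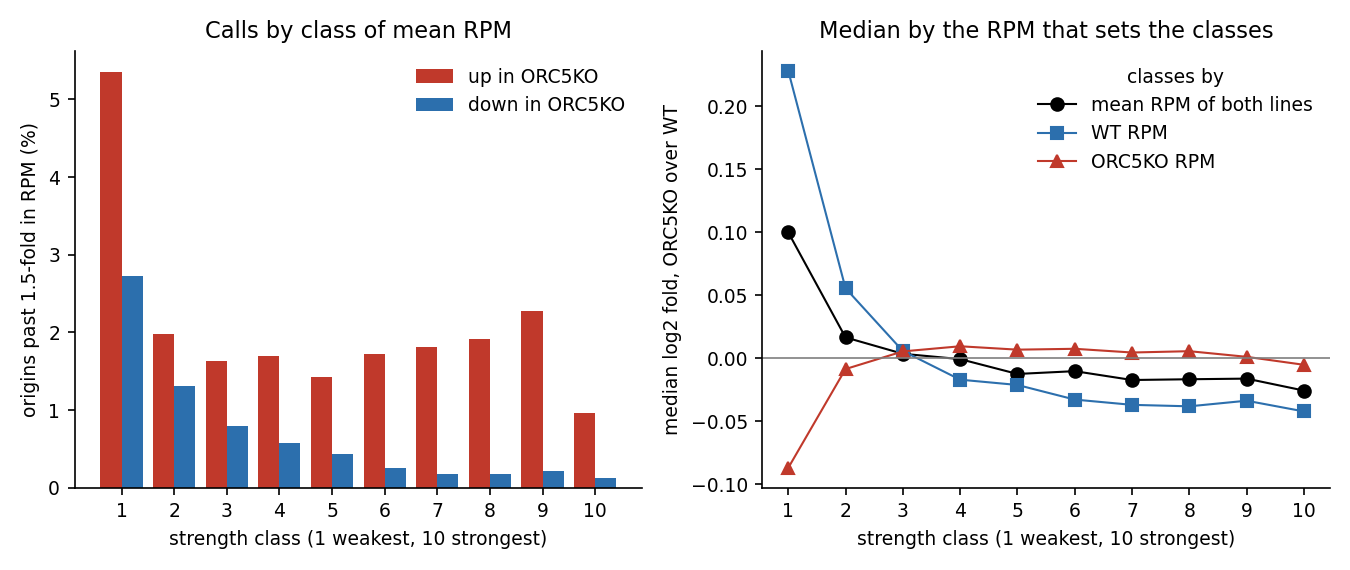
Left, share of origins up or down by 1.5-fold in ORC5KO (%) in 10 equal classes of mean RPM, class 1 the weakest. Right, median log2 fold of ORC5KO over WT per class, with classes set by the mean RPM, the WT RPM, or the ORC5KO RPM; the weakest class has a median of 0.10, 0.23, or −0.087 by these 3 rules.

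The strongest origin of both lines lies on chromosome 6 from 168233893 to 168238017 in the lncRNA gene ENSG00000228361. It held 4269 WT reads (621 RPM) and 4367 ORC5KO reads (512 RPM), a log2 fold of −0.28 (−0.34 to −0.22). By the mean RPM of both lines, the next is in a coding exon of PRR36 on chromosome 19, with 293 RPM in WT and 306 RPM in ORC5KO (log2 fold 0.06, −0.02 to 0.14). An intron of MED16, a subunit of the Mediator complex, held 310 and 280 RPM (−0.15, −0.23 to −0.06). Of the 2 origins on chromosome 19, only that in MED16 had an interval off 0. An intergenic origin on chromosome 22 from 19726005 held 280 and 259 RPM (−0.11, −0.20 to −0.02). A PTPRN2 intron on chromosome 7 held 278 and 251 RPM (−0.15, −0.24 to −0.06). Of these 5 origins, 4 had a lower RPM in ORC5KO with an interval below 0, and none was past 1.5-fold. Over all origins the interval lay below 0 for 4.76%, but the intervals of these deep origins are narrower than those of most.

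Origins at gene starts and exons were seldom up. Each origin was put in 1 class of GENCODE release 44, in the order 2 kb upstream of a protein-coding start, 5′UTR, coding exon, 3′UTR, intron, lncRNA gene, intergenic. Upstream of genes, 32 of 4747 origins were up (0.674%, 0.462% to 0.95%) and 22 were down (0.463%). At 5′UTRs, 0 of 565 were up, which allows a share of up to 0.531% by 3 counts of the total (0.651% by the exact interval), and 2 were down. Coding exons had 16 of 3108 up (0.515%, 0.295% to 0.835%) and 12 down. At 3′UTRs 2 of 688 were up (0.291%) and 8 were down (1.16%, 0.503% to 2.28%). Introns, which hold most of the joined origins inside genes, stood higher. They had 463 of 19019 up (2.43%, 2.22% to 2.66%) and 137 down (0.720%). Of the origins in lncRNA genes, 96 of 5099 were up (1.88%) and 42 down (0.824%). Between genes, 357 of 13237 were up (2.70%, 2.43% to 2.99%) and 93 down (0.703%). Upstream and exonic origins together had 50 of 9108 up (0.549%, 0.408% to 0.723%), below the 2.08% of all origins, and 44 down (0.483%, 0.351% to 0.648%). These intervals treat origins as separate draws, which neighbouring origins are not.

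**Figure D2:**
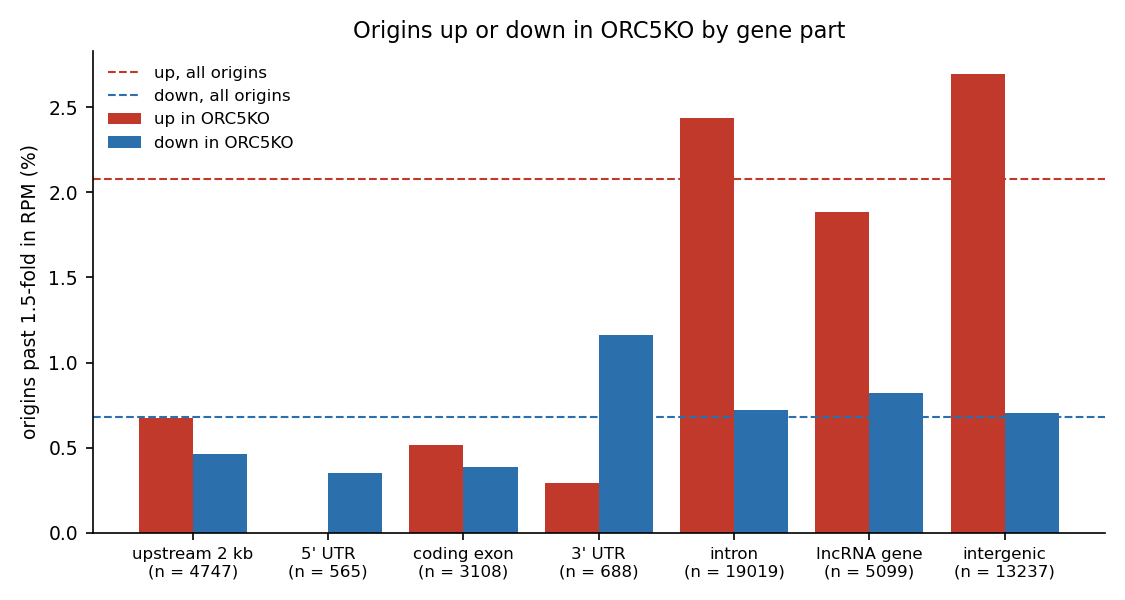
Share of origins up or down by 1.5-fold in ORC5KO (%) in each gene part, with the number of origins below each pair of bars. Dashed lines give the shares over all origins, 2.08% up and 0.68% down; introns and intergenic origins stand above the upper line, and upstream, UTR, and exonic origins far below it.

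Distance from the nearest protein-coding start showed the same order. Of the 2243 origins under 500 bp away, 7 were up (0.312%) and 13 down (0.580%), the nearest class being the only one of 6 with more down than up. The share up was 1.02% from 500 bp to 2 kb, 1.85% from 2 to 10 kb, 2.13% from 10 to 50 kb, 2.42% from 50 to 200 kb, and 2.68% at 200 kb or more. The share called only in ORC5KO went from 23.5% in the nearest class to 41.6% in the farthest. Gene starts are GC-rich, and the median GC content of these classes went from 64.4% to 48.8%.

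Base composition set the up origins apart. Where absolute GC skew was under 0.2, 43 of 7637 origins (0.563%) were up and the median log2 fold was −0.06. From 0.6 to 0.8, 220 of 1688 (13.0%) were up, at a median of 0.22. At 0.8 or more, 412 of 949 (43.4%, 40.2% to 46.6%) were up and 1 was down, and the median was 16.3 RPM in WT and 23.9 RPM in ORC5KO. At a skew of 0.6 or more, G-rich and C-rich forward strands had alike medians, 0.32 over 1279 origins and 0.34 over 1358. By GC content, the share up was 2.61% under 40%, 3.57% from 40% to 50%, 1.68% from 50% to 60%, and 0.557% from 60% to 70%, and 3 of 1501 origins were up at 70% or more. Under 40% GC, 23 of 1532 origins were down, the highest share of these classes. The shares down were 0.803% from 40% to 50%, 0.610% from 50% to 60%, 0.499% from 60% to 70%, close to the share up, and 0.533% at 70% or more, where 8 origins were down.

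Tandem repeats of a few bases marked a share of the up origins. The longest exact repeat of a unit of 2 to 6 bases was found in each origin on the hg38 sequence, with rotations and both strands of a unit pooled. A tract of at least 20 bases was present in 3590 origins (7.73% of all), among them 308 of the 966 up origins (31.9%) and 8 of the 316 down origins (2.53%). The unit ATCC, at least 5 copies in a row, was the longest tract of 753 origins (1.62% of all), which hold 182 up origins and 0 down origins. Their median was 19.8 RPM in WT and 26.2 RPM in ORC5KO, a median log2 fold of 0.37. In the tables of the other knockout lines, these origins had medians of 0.58 in ORC1KO and 0.42 in ORC2KO, which share the WT libraries with ORC5KO. Of the ATCC origins on both lists, 60 of 437 were up (13.7%), and of those called only in ORC5KO, 118 of 287 (41.1%). The lists were called on the same reads, so this split is a description, beside 0.604% and 4.89% over all origins of these kinds. ATCC origins in introns and between genes were up in 25.3% and 26.6% of cases, and those upstream of genes or in exons in 4 of 43.

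Other repeat units differed widely. ACC tracts had 34 of 122 origins up (27.9%) at a median log2 fold of 0.20. AAGG followed with a median of 0.16 and 10 of 302 up (3.31%), AAGGG with 0.13 and 1 of 71 (1.41%), AGGG with 0.12 and 12 of 381 (3.15%), and AC with 0.10 and 8 of 213 (3.76%). Medians below 0 included −0.04 for AGGGG (0 of 256 up), −0.09 for ACCC (1 of 79), and −0.11 for CCG (0 of 75). ATCC tracts also had the highest median skew of these units, 0.74, beside 0.48 for AAGG, 0.41 for ACC, 0.34 for AC, and 0.19 for CCG. Whether the repeat or the skew goes with the change was not tested. No tract says only that none of 20 bases lies within the joined origin, and the mapping of reads to repeats was not tested.

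**Figure D3:**
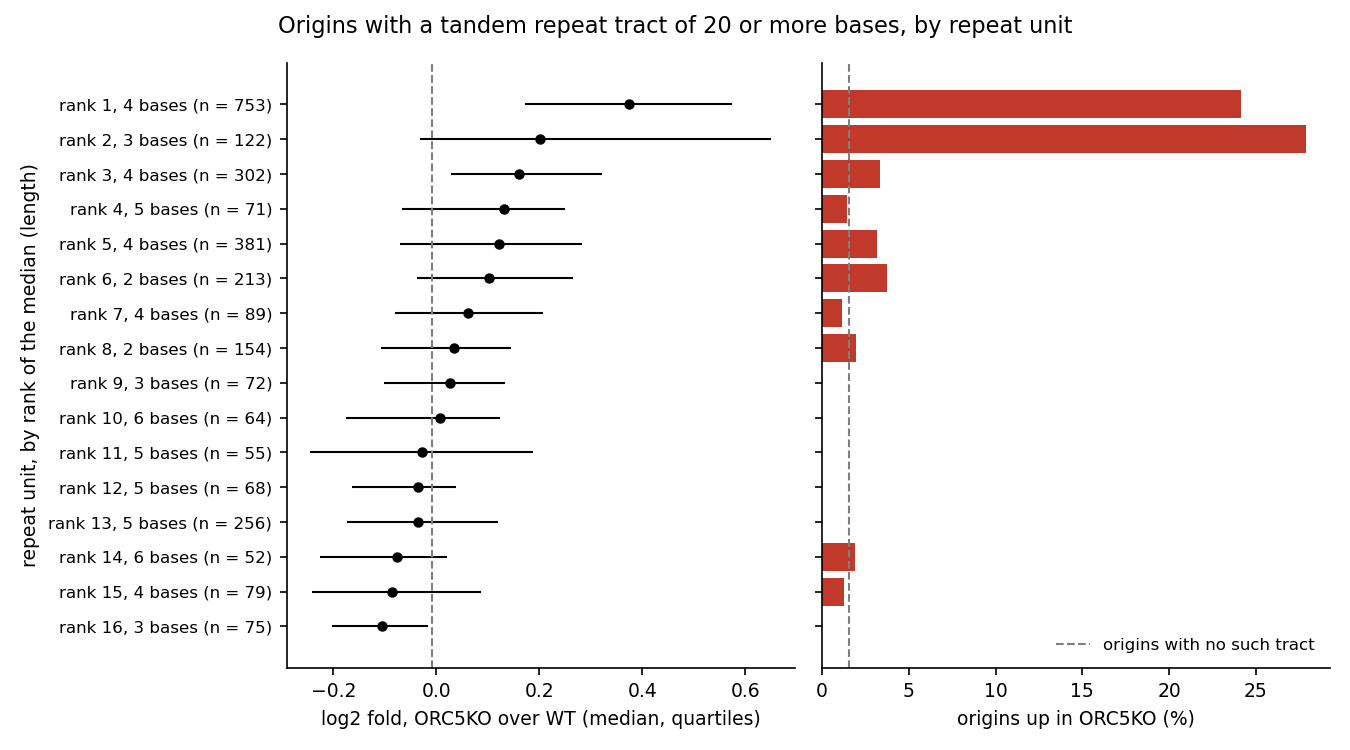
Origins whose longest tandem repeat has at least 20 bases, by repeat unit in the order of the median, for the 16 units with 50 origins or more. Points and lines give the median and quartiles of the log2 fold of ORC5KO over WT, bars the share up by 1.5-fold (%), and dashed lines the values of origins with no such tract; ranks 1 and 2 are ATCC and ACC (24.2% and 27.9% up), and rank 16 is CCG (0%).

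The highest single origin lies on chromosome 12 from 132181160 to 132181562, 14809 bp from GALNT9, a gene for an enzyme that starts O-linked glycan chains. It held 27 WT and 111 ORC5KO reads, a log2 fold of 1.73 (1.11 to 2.39). The KLHDC4 intron on chromosome 16 held 70 and 278 reads, or 10.2 and 32.6 RPM, a log2 fold of 1.68 (1.30 to 2.08). In the lncRNA gene ENSG00000224322 on chromosome 7, 117406 bp from the homeobox gene EVX1, reads went from 39 to 150 (1.63, 1.12 to 2.18). An intron of CACNG4, which codes for a calcium channel and AMPA receptor auxiliary subunit, held 48 and 183 reads (1.62, 1.16 to 2.11). The other 4 of the 8 highest, in an ST18 intron, near ANTXRL, near ZC3H6, and in the lncRNA gene ENSG00000255931, had log2 folds of 1.63, 1.52, 1.51, and 1.47. All 8 were called only in ORC5KO, and all had an absolute GC skew of 0.65 to 0.95. Over all origins, 35.3% were called only in ORC5KO and 5.68% had an absolute skew of 0.6 or more. Among up origins these shares were 83.0% and 65.4%. The 8 were picked by fold on the reads behind the lists, so their place on the lists is partly built in. Every value that these 8 had in ORC1KO or ORC2KO, against the same WT libraries, was also above 0. The KLHDC4 intron had 2.40 and 2.51 there. The highest origin with an ATCC tract lies on chromosome 1 from 22336808 to 22337425, 91412 bp from ZBTB40, with 53 and 168 reads (1.35, 0.90 to 1.83).

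The lowest origins lay together. Of the 8 lowest with at least 100 reads, 6 lie on chromosome 5 between 177960993 and 178552177 and 2 on chromosome 6. The lowest, in a COL23A1 intron from 178543962 to 178544312, held 84 WT and 35 ORC5KO reads (12.2 and 4.11 RPM), a log2 fold of −1.57 (−2.18 to −0.99). The next spans the start of SMOC2 on chromosome 6 from 168440801 to 168441310 and held 90 and 39 reads (−1.52, −2.10 to −0.96). COL23A1 introns held 4 more, with log2 folds of −1.38, −1.29, −1.24, and −1.21. The strongest of the 8, in lncRNA genes, went from 227 to 118 reads (−1.25, −1.59 to −0.93) and was the only one on both lists. Of all down origins, 82.9% were called only in WT, beside 11.3% of all origins. The lowest origins were thus mostly those of a single gene, COL23A1. With 80 reads in all, an origin in an LMNB1 intron on chromosome 5 from 126824533 to 126824843 lies under the limit of 100, and it went from 65 to 15 reads (−2.42, −3.34 to −1.60), the lowest value of all origins.

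At the scale of 5 Mb, the 2 lines were close. Of 551 blocks with at least 10 origins, 520 (94.4%) had a median within 0.1 of the median of all origins. No block was more than 0.25 above it, and 2 were more than 0.25 below, which are the first 2 blocks of chromosome 10. From 0 to 5 Mb, 125 origins had a median log2 fold of −0.28, with 108 below 0 and 11 down, and their summed reads went from 3256 to 2743 RPM. From 5 to 10 Mb, 65 origins had a median of −0.29, with 57 below 0 and 7 down. The next lowest blocks, on chromosomes 13 and 18, had medians of −0.18 and −0.17. The highest were on chromosome X from 100 to 105 Mb (median 0.22, 12 origins), chromosome 4 from 115 to 120 Mb (0.21, 12 origins), and chromosome 3 from 105 to 110 Mb (0.19, 15 origins).

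Shorter stretches of neighbouring origins stood lower still. Runs of at least 5 origins with a running median over 11 origins beyond 0.25, a measure added after the blocks had been seen, numbered 15 downward (194 origins, 54 of them down) and 17 upward (128 origins, 27 up). On chromosome 5 from 177808426 to 178971473, all 31 origins had a log2 fold below 0 and 22 were down. Their median was −0.74 (quartiles −1.01 and −0.57), and summed RPM fell from 709 to 437, a log2 fold of −0.70 (−0.76 to −0.64). The 184 origins within 2 Mb on either side had a median of −0.02 and 1 down origin. The edges of this and the following segments were picked on these same folds, so their contrast with the flanks is partly built in. The protein-coding genes touched by these origins include COL23A1, NHP2, PHYKPL, N4BP3, and RMND5B. The same origins had medians of −0.19 in ORC1KO and −0.08 in ORC2KO against the same WT libraries.

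On chromosome 6 from 168391229 to 168879146, all 19 origins were below 0 and 14 were down, with a median of −0.84 and a fall from 601 to 398 RPM. The flanks held 144 origins with a median of −0.0092 and 0 down. SMOC2 is the 1 protein-coding gene touched by these origins, and the strongest origin of both lines lies within the flank on its left. The medians in ORC1KO and ORC2KO were −0.14 and −0.08. On chromosome 7 from 158279556 to 158485892, inside PTPRN2, 6 of 8 origins were below 0, 4 were down and 1 was up, the median was −0.66, and RPM went from 337 to 231. The 135 flanking origins had a median of 0.0013. The first 10 Mb of chromosome 10 held 190 origins with a median of −0.28, of which 165 were below 0 and 18 down. The next 2 Mb had a median of −0.01 over 33 origins, of which 2 were down. In ORC1KO and ORC2KO the medians of this chromosome 10 segment were −0.04 and −0.06.

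**Figure D4:**
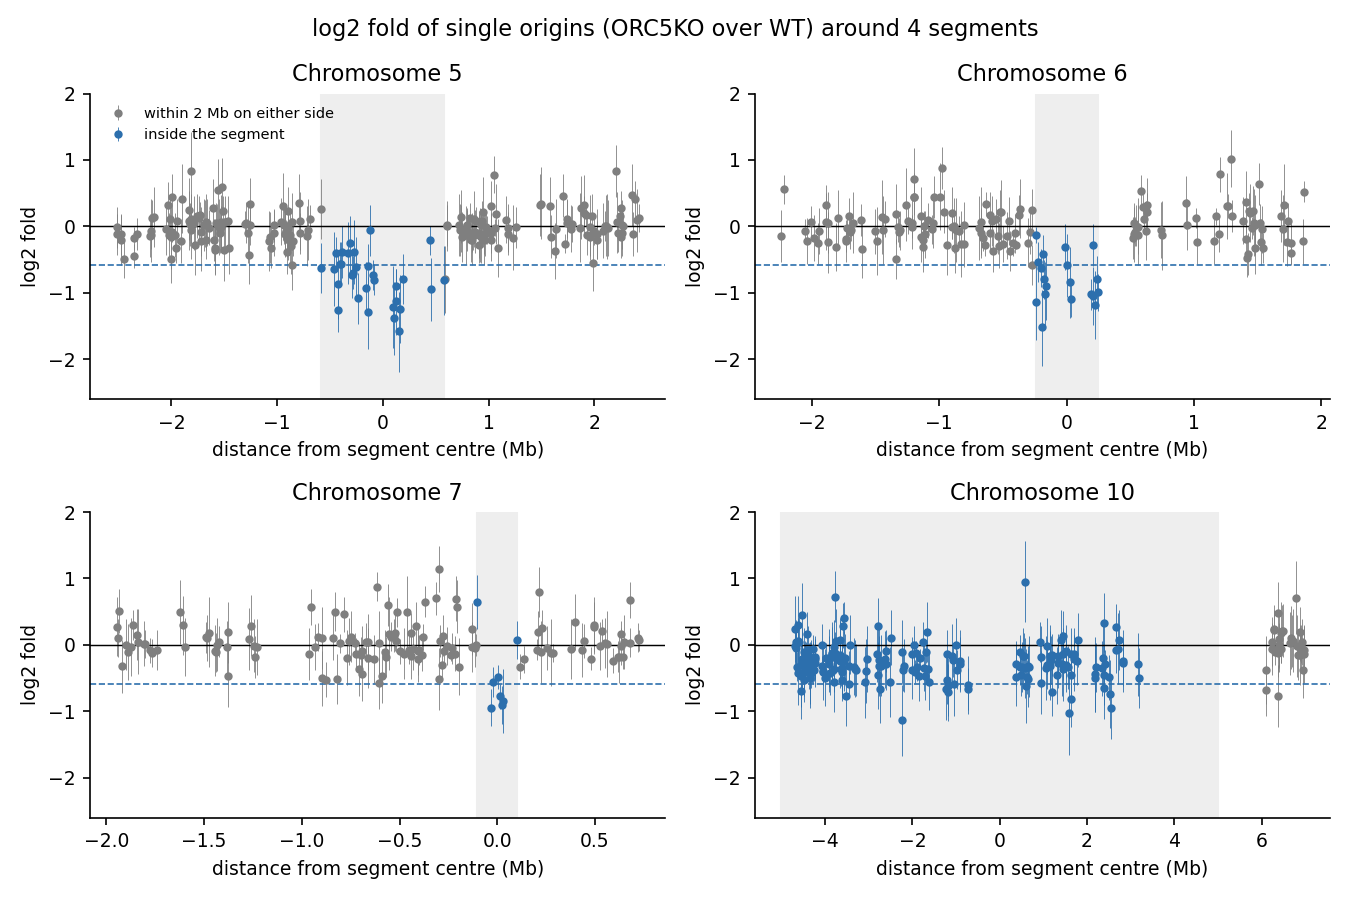
log2 fold of ORC5KO over WT for each origin (points, with exact 95% Clopper-Pearson intervals) against its distance from the centre of 4 segments (Mb), shaded, with up to 2 Mb of flank, which chromosome 10 has on the right side only. Dashed lines mark 1.5-fold; origins inside the segments of chromosomes 5 and 6 are all below 0, those of chromosome 10 sit in a shallow step with a median of −0.28, and the medians of the flanks lie between −0.02 and 0.0013. The segment edges were picked on the same folds.

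The 4 segments together hold 248 origins and 58 of the 316 down origins (18.4%). The 20 origins nearest to the chromosome 5 segment had a median of −0.04, and those nearest to the chromosome 6 segment one of −0.09. The tables hold no count of genomic DNA, so fewer copies of a segment and less use of its origins cannot be told apart. Whether such a step is in both replicates cannot be seen, since they are merged.

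None of the upward runs had a median as far from 0 as the 3 lowest downward runs. The run of 17 origins on chromosome X from 1453604 to 2193829 lies in the pseudoautosomal region shared by X and Y and covers P2RY8, ASMTL, and AKAP17A, with 5 up origins and a median of 0.36 (254 to 328 RPM). The whole pseudoautosomal region at the start of X held 77 origins, of which 15 (19.5%) were up, whereas the other 365 origins of X had 7 up (1.92%). On chromosome 11 from 69243084 to 69301134, at MYEOV, 11 origins had a median of 0.43 and 3 were up. A run of 6 origins without a protein-coding gene on chromosome 2 from 132266301 to 132395758 had a median of 0.54, the highest of the upward runs, with 2 up. Runs near the centromeres of chromosomes 20 and 10, from 28897410 and 38918420, had medians of 0.40 and 0.38. The medians of these 5 runs in ORC1KO were 0.57, 0.49, 0.62, 0.72, and 0.70, against the same WT libraries. In ORC2KO they were 0.47, 0.32, 0.64, 1.15, and 0.71. Of all 17 upward runs, 1 had a median below 0 in ORC1KO (chromosome 11 from 1915752, −0.15) and 2 in ORC2KO (chromosome 9 from 132799226, −0.21, and chromosome 22 from 49581484, −0.07). The run with the next highest median after that on chromosome 2, on chromosome 7 from 106619619, had 0.49, with 0.70 in ORC1KO and 0.23 in ORC2KO.

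By chromosome, the share up ran from 0.974% on chromosome 3 to 4.98% on X, and the share down from 0.171% on chromosome 17 to 1.96% on chromosome 5. Without the segment on chromosome 5 the latter was 0.806% (15 of 1861 origins), and without the segments given above the shares on chromosomes 6 and 10 were 0.668% and 0.449%. The share on X rests on the pseudoautosomal region, as given above. The median log2 fold lay between −0.02 and 0.02 on every autosome and was 0.06 on X. Within 2 Mb of a chromosome end, 138 of 4013 origins (3.44%) were up, compared with 2.84% from 2 to 10 Mb and 1.68% farther in. The shares down did not follow this order, at 0.648%, 1.06%, and 0.570%. Down origins of the segments on chromosomes 5, 6, and 10 fall in the class from 2 to 10 Mb. Its share without them was not computed. Origins near the ends were also stronger, with a median of 21.8 RPM in WT beside 15.1 RPM farther in.

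The ratio of ORC5KO to WT peaks was lowest in the most GC-rich parts of the genome. The 1 Mb windows were put in 5 equal groups by GC content. In the group with the least, 33.6% to 37.0% GC, the lists held 659 WT and 1032 ORC5KO peaks, a ratio of 1.57, and the next groups had ratios of 1.65 and 1.59. In the group with the most, above 44.4%, they held 18370 and 23301, a ratio of 1.27, beside 1.37 over all windows. The reads did not follow this: the summed log2 fold was −0.03, −0.01, −0.0085, −0.0035, and 0.0063 from the first group to the last. Origins up by 1.5-fold were 0.964% of those in the first group and 2.55% in the last, and origins down were 1.04% and 0.620%.

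Genes were compared by the RPM summed over the origins that touch the gene body. Of 9467 protein-coding genes with an origin, 8648 had at least 200 reads, and their median log2 fold was −0.01 (quartiles −0.09 and 0.07). At 1.5-fold, 21 genes (0.243%) were up and 9 (0.104%) were down. The interval lay above 0 for 485 genes and below 0 for 567. Genes with a peak on the ORC5KO list and none on the WT list numbered 2060, and the reverse 674.

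The gene with the highest fold was CRLF2, which codes for a subunit of the receptor for the cytokine TSLP and lies in the pseudoautosomal region (X:1190490 to 1212723). Its 1 origin, in an intron with an ATCC tract of 44 bases, went from 67 to 192 reads, or 9.74 to 22.5 RPM (log2 fold 1.21, 0.80 to 1.63). C1R, a protease that starts the classical complement pathway, had 2 intronic origins that rose from 110 to 280 reads together (1.04, 0.72 to 1.37). CCL17, a chemokine that draws T cells, rose from 134 to 308 reads in an intron with an ATCC tract of 20 bases (0.89, 0.59 to 1.19). In ANKRD30BL on chromosome 2, just left of the run from 132266301, the origin went from 182 to 455 reads (1.01, 0.76 to 1.27) with a GC skew of −0.06, the value closest to 0 among the 10 highest. PLG, the precursor of the clot-dissolving enzyme plasmin, had a log2 fold of 0.71 (0.29 to 1.15).

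The other 5 of the 10 highest were PISD, a mitochondrial enzyme of phosphatidylethanolamine synthesis (0.68), ATP5MC2, a ring subunit of ATP synthase (0.67), SLC35F1 (0.66), the surface protein CD99 (0.66), and PAX4, a factor of pancreatic endocrine cells (0.65). All of them had an interval above 0, with lower ends from 0.28 to 0.38. Of the 10, 7 had no peak on the WT list, the exceptions being PISD, ATP5MC2, and CD99. Over all 9467 genes with an origin, 2060 had a peak on the ORC5KO list alone. The 10 were picked by fold on the reads from which the lists were called, so their count is partly built in. Every value that these 10 genes had in ORC1KO or ORC2KO, against the same WT libraries, was also above 0. CRLF2 had 1.41 and 1.64 there.

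Among genes with 3 or more origins, MASP2, a protease of the lectin pathway of complement, was highest. Its 3 intronic origins each have an ATCC tract of 20 to 36 bases, and their reads went from 144 to 249, 130 to 261, and 102 to 218. BCL11A, a repressor of fetal globin genes, had reads of 42 to 65, 56 to 111, and 58 to 123 in its 3 origins (0.63 summed, 0.35 to 0.92). GALR1, a galanin receptor, had 68 to 118, 53 to 105, and 62 to 124 (0.61, 0.35 to 0.88). P2RY8, a receptor of germinal-centre B cells, had 4 origins, of which 1 went from 53 to 161 reads (1.29, 0.84 to 1.77) and the others had log2 folds of 0.11 to 0.58. GPR158, a G protein-coupled receptor of the brain, had 0.54 (0.27 to 0.82). None of the 16 origins in these 5 genes was on the WT list. Of all origins 35.3% were called only in ORC5KO, and of the up origins 83.0%. The 5 genes were also picked by fold on the reads behind the lists. All values that they had in ORC1KO or ORC2KO were above 0 too, those of MASP2 being medians of 1.01 and 0.98.

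The lowest genes were led by those of the chromosome 5 segment. NHP2, a protein of the H/ACA particles that modify ribosomal RNA and hold telomerase RNA, fell from 157 to 92 reads in its 1 origin, 22.8 to 10.8 RPM (−1.08, −1.47 to −0.70). PHYKPL, an enzyme that breaks down phosphohydroxylysine, fell from 139 to 91 reads (−0.92, −1.32 to −0.53). COL23A1 (5:178237476 to 178590393), a transmembrane collagen, held 12 origins and fell from 2008 to 1388 reads, 292 to 163 RPM (−0.84, −0.94 to −0.74). It had 11 origins on the WT list and 4 on the ORC5KO list. SMOC2 (6:168441151 to 168673445), a matrix protein that binds calcium, held 9 origins, all on the WT list and 2 on the ORC5KO list, and fell from 194 to 114 RPM (−0.77, −0.89 to −0.65).

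Away from these segments, C7orf33 on chromosome 7 fell from 150 to 103 reads (−0.85, −1.23 to −0.48) in an origin with an AG tract of 52 bases. LMNB1, lamin B1 of the nuclear envelope, fell from 185 to 143 reads (−0.68, −1.01 to −0.36), with 17.4 and 15.0 RPM at its start (−0.22, −0.59 to 0.16) and a fall in the intronic origin given above. UTP18, which acts in small ribosomal subunit assembly, had −0.64 (−0.94 to −0.34). KRTAP10-10 of the hair shaft, the glypican GPC4, and the lipid phosphatase PLPP3 had −0.60, −0.59, and −0.58, each with an interval below 0. With 3 or more origins, CHRM3, the muscarinic M3 receptor, had −0.56 (−0.79 to −0.32), LAMA2, a laminin of muscle, −0.39 (−0.62 to −0.17), and the phospholipase PLA2G4E −0.35 (−0.58 to −0.13). All 4 origins of CHRM3 and all 4 of LAMA2 were called only in WT, compared with 11.3% of all origins and 82.9% of the down origins. Both genes were picked by fold on the reads from which the lists were called. All of these genes away from the segments were also below 0 in ORC1KO and ORC2KO, against the same WT libraries. There C7orf33 had −0.86 and −0.49, UTP18 medians of −0.90 and −0.50, and CHRM3 medians of −0.43 and −0.56.

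**Figure D5:**
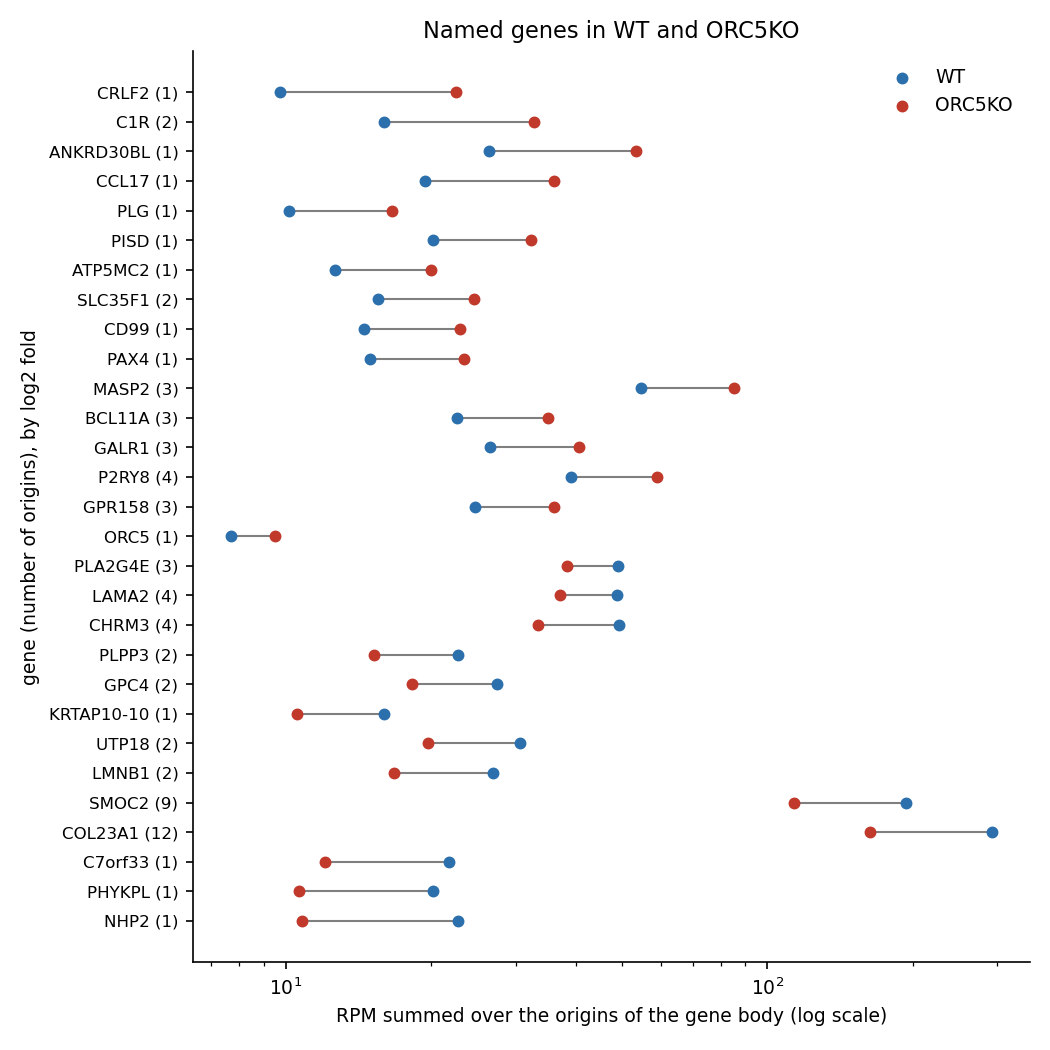
RPM summed over the origins of each gene body in WT (blue) and ORC5KO (red) on a log scale, for the named genes in the order of their log2 fold, with the number of origins in brackets. CRLF2 at the top goes from 9.74 to 22.5 RPM and NHP2 at the bottom from 22.8 to 10.8 RPM; COL23A1 and SMOC2 have the most reads.

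ORC5 itself (7:104126341 to 104208047) held 1 origin, in an intron from 104128251 to 104128690, with 53 WT and 81 ORC5KO reads (0.30, −0.21 to 0.83), called only in ORC5KO. Reads of nascent DNA do not show whether the protein is absent, so they are no check of the knockout.

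No gene of the replication lists was past 1.5-fold, beside 0.243% up and 0.104% down over all genes. At these shares, lists of so few genes would seldom hold any. Of 15 licensing genes (ORC1 to ORC6, CDC6, CDT1, GMNN, and MCM2 to MCM7), 8 had an origin and 5 had at least 200 reads, with a median log2 fold of 0.11 and 0 intervals off 0, beside 485 above and 567 below over the 8648 genes. CDC6, which joins ORC to load the helicase, held 16.7 and 20.1 RPM (0.26, −0.09 to 0.62), and CDT1, its partner, 38.7 and 37.3 RPM (−0.05, −0.29 to 0.19). The MCM5 and MCM2 helicase subunits had −0.09 and 0.19, and MCM7 had 0.11, all with intervals that hold 0. Of 20 origin firing genes, 8 had at least 200 reads and a median of −0.03. GINS2, of the GINS complex of the active helicase, had 0.19 (0.01 to 0.38), the only one with an interval off 0. Of 20 replication checkpoint and repair genes, 7 had at least 200 reads and a median of −0.08, and the highest was RPA2, which coats single-stranded DNA (0.34, −0.02 to 0.70). The median of all 8648 genes was −0.01.

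No gene of the other lists was past 1.5-fold either, which for so few genes is likewise near the shares over all genes. Of 20 colon cancer and epithelial genes, 12 had at least 200 reads, with a median of −0.05. The 3 with an interval off 0, beside 485 above and 567 below of all 8648 genes, were VIL1, a microvillus protein of the gut (0.18), MUC2, and AXIN2. MUC2, the gel-forming mucin of the colon, went from 199 to 220.3 RPM (0.15, 0.04 to 0.25), and AXIN2, a feedback inhibitor of Wnt signalling, from 150.2 to 137 RPM (−0.13, −0.26 to −0.01). Of 10 genes at classically mapped origins, 2 had one. LMNB2 held 5 origins with 311 and 286 RPM (−0.12, −0.20 to −0.04).

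Large genes at common fragile sites, which are prone to breaks under replication stress, differed in called origins but little in reads. Of 16 such genes, 13 had an origin, and all 13 had more peaks on the ORC5KO than on the WT list, 86 against 39 in all, a ratio of 2.21 beside 1.33 over all genes with an origin. Over all 9467 genes, 4345 had more ORC5KO peaks and 1270 fewer. The 13 genes are long and held 98 origins, whereas the 8648 genes with at least 200 reads held 28292, counted per gene. In the 3 groups of 1 Mb windows with the least GC the ratio was 1.57 to 1.65. Genes of like length, origin number, or GC content were not compared, so a trait of fragile sites cannot be told from these. FHIT, at a well-known fragile site, had 4 and 0 peaks with 53.3 and 48.6 RPM (0.13, −0.07 to 0.34), and WWOX 6 and 2 peaks with 100.3 and 91.4 RPM (0.13, −0.02 to 0.28). The median log2 fold of the 13 genes was 0.06 and 10 were above 0, compared with 4026 of the 8648 genes. CNTNAP2 (121 to 154 RPM, 0.34, 0.22 to 0.47), IMMP2L (0.33, 0.10 to 0.56), and LSAMP (0.19, 0.04 to 0.34) had an interval above 0, 3 of 13 beside 485 of the 8648 genes.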

How the data were processed

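SNS-seq was done on HCT116 p53-/- cells, WT and ORC5KO, with 2 biological replicates per line. The authors trimmed reads with Trim Galore 0.6.4, aligned them to hg38 by Bowtie, ran MACS2 on the replicates one by one, and retained peaks found in both, per the methods and the submitters' processing notes. The deposited counts are whole numbers of reads per joined origin, without normalization and with replicates merged. Treatment of duplicate reads is not given in the sources used here, so intervals cover counting error only. The deposited peak lists give positions only, on the hg38 build.

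From these, RPM by the column total, log2 folds, exact 95% Clopper-Pearson intervals on the share of ORC5KO reads, and calls at 1.5-fold were computed without a pseudocount or a filter on origins. No test between the lines was run. Total counts were 6878409 in WT and 8523971 in ORC5KO. Lists were matched by an overlap of at least 1 bp. Gene parts came from basic transcripts of GENCODE release 44, and sequence from hg38. Gene values sum the origins that overlap the gene body, with at least 200 reads of both lines together. Named genes were the 10 highest and 10 lowest by log2 fold whose interval leaves out 0, the 5 highest and 5 lowest with at least 3 origins, list members past 1.5-fold, and ORC5. No list member was past 1.5-fold, so the list genes given with values stand outside this rule. Named origins were the 8 highest and 8 lowest with at least 100 reads and the 5 strongest, and named blocks the 5 highest and 5 lowest. Other origins of named genes, the upward runs, and the origin with the ATCC repeat were chosen after their values were seen. The members and lists were chosen with earlier results of these data known. The calling step was tested on simulated counts. Alternatives covered the scaling, filters, threshold, GC content (a running median), gene span, classes, and block size. Tables of ORC1KO and ORC2KO were used only for the values beside those of ORC5KO, matched by overlap. Scripts ran in R 4.3.3 (edgeR 4.0.16) and Python 3.11.15 (scipy 1.17.1, numpy 2.4.6, pandas 2.3.3, matplotlib 3.10.9, pysam 0.24.0), with samtools 1.23.1. A few items are not reported here.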

Additional observations from a re-analysis of the deposited data

Results flagged for a closer look

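Reads on contigs outside chromosomes 1 to 22 and X were not used in any comparison. The 259 origins there held 68962 WT reads and 80131 ORC5KO reads, which are 10026 and 9401 RPM, a log2 fold of −0.09 (exact 95% Clopper-Pearson interval −0.11 to −0.08, counting error only).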

How the results depend on the processing

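No paired analysis was possible because the replicates of a line are merged in the tables, and for the same reason leaving out a replicate could not be run. Of 42 alternative values, 30 stayed within 1.5 times the main count or within the interval of the main value, 11 moved, and 1 reversed. Some of those that stayed had little room to move. A stricter overlap with the peak lists left 16401 and 5245 unchanged, and only 30 origins held under 100 reads. Asking that the interval leave out 0 gave 963 up and 316 down, which largely follows from the cut. At 2-fold, 125 origins were up and 21 down, in place of 966 and 316. At least 100 reads per gene gave 33 genes up and 20 down, and at least 400 reads gave 9 and 2, in place of 21 and 9. The median of the weakest class, 0.10, was 0.23 with classes by WT RPM, −0.087 with classes by ORC5KO RPM, and 0.12 with scaling to origins called in both lines. Blocks beyond 0.25 numbered 4 at 2 Mb and 1 at 10 Mb, in place of 2 at 5 Mb, all below the median of all origins, and runs of neighbouring origins, added after seeing the data, numbered 32. Without the 4 segments, also added, 258 origins were down. Scaling to origins called in both lines gave 1073 up and 269 down, edgeR TMM factors 978 and 305, and median-of-ratios factors 979 and 304. Correction for GC content gave 919 and 324. Depth limits single origins: the interval of the log2 fold was 0.75 wide at the median origin and 0.33 wide at origins with 1000 reads or more. The spread between cultures is not known for any value.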
